A study of Mus musculus with 6 samples.

Results

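The 10 genes described here are disallowed genes of mature beta cells: Ldha, Slc16a1, Pdgfra, Acot7, Hk1, Hk2, Oat, Igfbp4, Cxcl12 and Smad3. They were taken by symbol from the deposited table, and for each symbol the RefSeq transcript with the highest mean level was used, which gave 10 of 21813 gene symbols. The islets came from 3 male Ucn3 null mice and from 3 male wild-type littermates, all adults of 3 months, and each animal was sequenced as a library of its own. Urocortin 3 is a peptide hormone of mature beta cells, and the comparison asks what its loss does to islet transcripts. How the null allele was made and the strain of the mice are not given in the sources used here. The islets were whole and of mixed cell type by the labels, although the extraction protocol also mentions a cell sort.

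Disallowed genes are active in most tissues but are kept at a low level in mature beta cells. Beta cells pass nearly all pyruvate from glucose to their mitochondria, so little lactate dehydrogenase A or plasma membrane lactate carrier is made, and the high-affinity hexokinases are kept low as well. The group also holds genes of growth factor, chemokine and TGF-beta signalling that belong to other cells of the islet or to immature beta cells. DNA methylation by Dnmt3a has been described as a brake on some of them in mouse beta cells, and their return has been described in immature or stressed beta cells. Whole islets also hold alpha, delta, endothelial, stromal and immune cells, whose transcripts are measured together with those of beta cells, so fewer cells of a type and less RNA per cell cannot be told apart.

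Levels are given in RPKM, that is, reads corrected for transcript length and library size, and may therefore be set beside each other between genes. Depth, estimated from the spacing of low values, was 46360000 to 51840000 reads in null libraries and 42570000 to 48420000 reads in wild-type libraries, the lowest being wild type replicate 1. Ucn3 held 1.61, 1.63 and 1.80 RPKM in null islets, against 136, 157 and 155 RPKM in wild-type islets, so all 6 libraries matched their labels. Defining markers of beta cells were present, with Ins2, an insulin gene, between 184445 and 202333 RPKM in null and between 202206 and 232411 RPKM in wild-type islets. Acinar markers, which come from exocrine tissue, summed to between 5276 and 24774 RPKM in null and between 600 and 6838 RPKM in wild-type libraries, over 29 genes.

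All 10 disallowed genes had their highest value in the same library, wild type replicate 1. That library is the highest for 3072 of the 12652 genes tested, which is 24.3%, and for 33.5% of the 5486 genes with a mean from 0.05 to 1 RPKM. The summed level of the 10 genes was 12.9, 12.2 and 13.2 RPKM in Ucn3 null replicates 1 to 3, against 22.6, 14.5 and 13.6 RPKM in wild type replicates 1 to 3. The ratio of wild type replicate 1 to the mean of the other 5 libraries was 2.43 for Cxcl12, 2.0 for Igfbp4 and 1.83 for Slc16a1, and it was smallest for Hk2, at 1.21. For each of the 10 genes a ratio or a difference between the genotypes is therefore given below with and without this library. Leaving out the highest wild-type library of a gene can only raise its null to wild type ratio and difference. The values without it thus show its weight and are no independent check. Tests of related genes and of ratios between genes use all libraries. For Hk2 and Pdgfra, with few reads, the highest place of wild type replicate 1 did not stand out from counting error.

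**Figure D1:**
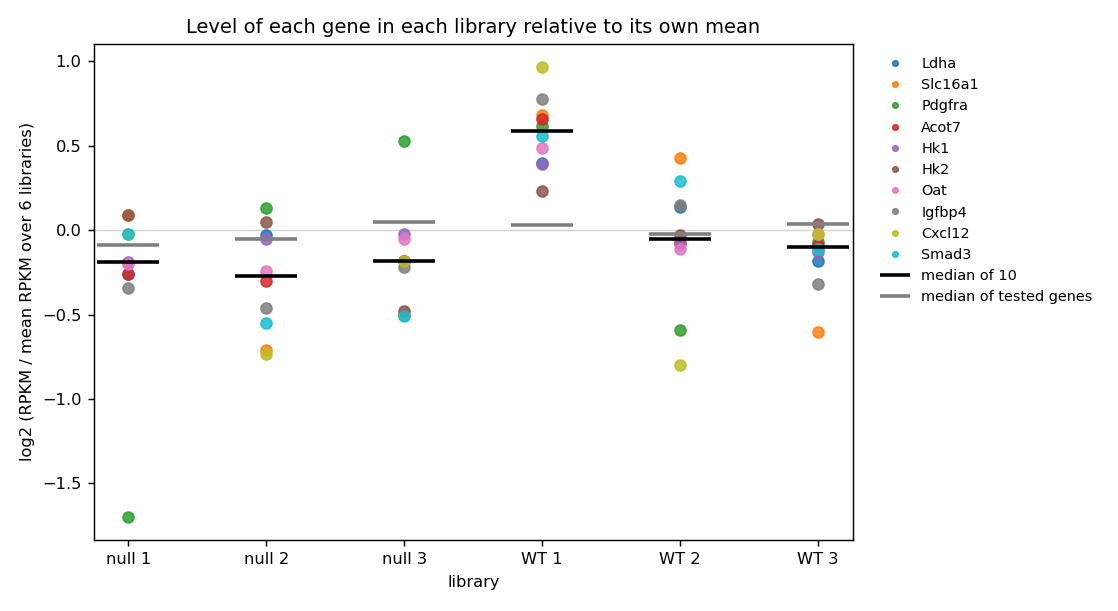
Each point is a disallowed gene in a library, as log2 of its RPKM over its own mean of the 6 libraries, with Ucn3 null libraries on the left and wild-type libraries (WT) on the right; black bars are the median of the 10 genes and grey bars the median of the 12652 tested genes. All 10 genes lie above 0 in wild type replicate 1, where their median is 0.59 against 0.03 for tested genes.

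No disallowed gene passed the test between null and wild-type islets. Of the 10 genes, 6 averaged at least 1 RPKM and entered the fit of limma on log2(RPKM + 1) (Ldha, Acot7, Hk1, Oat, Igfbp4 and Cxcl12), and 0 of these 6 had an adjusted p under 0.05, beside 0.0158% of all tested genes. At an unadjusted p under 0.05 limma also counted 0 of the 6, beside 9.36% of tested genes. Smad3, Slc16a1, Pdgfra and Hk2 lay under the filter. In a fit without the filter 0 of all 10 passed, beside 4 of all 21813 symbols. In that fit 1 of the 10, Smad3, had an unadjusted limma p under 0.05. The share of all symbols under that unadjusted p was not computed there. The simpler count of direction gave a null mean below the wild-type mean for all 10 genes, beside 61.7% of tested genes and 60.1% of the genes from 0.05 to 1 RPKM. Without wild type replicate 1 the count was 7 of 10, beside 58.2% of tested genes and 51.3% of genes from 0.05 to 1 RPKM. The median difference of the 6 tested disallowed genes was then -0.08 on the log2(RPKM + 1) scale, against -0.23 with all libraries. The median over all tested genes was -0.03 in both cases. Because the library left out was the highest for all 10 genes, their count could only stay or fall and their median could only rise.

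**Figure D2:**
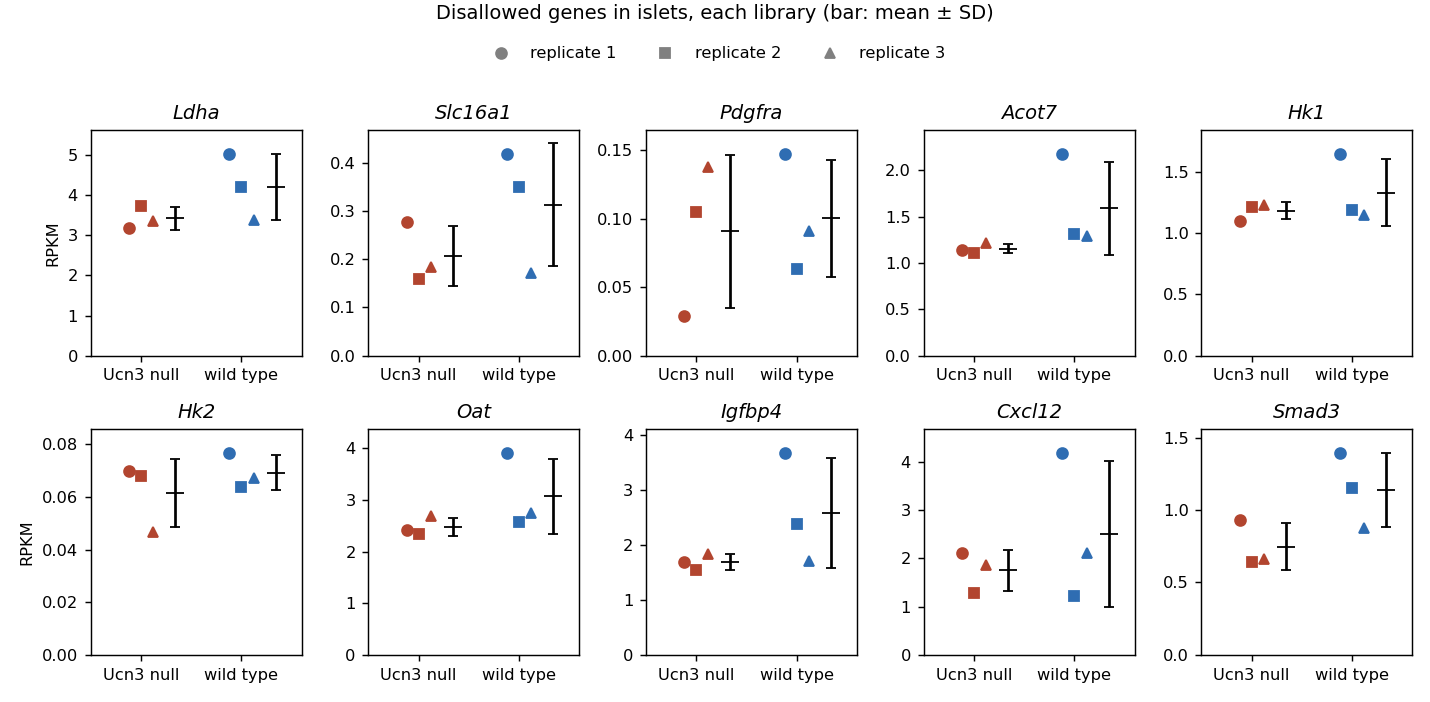
RPKM of each disallowed gene in 3 Ucn3 null libraries (red, left) and 3 wild-type libraries (blue, right), with the mean and SD of each group in black; the axes start at 0 and differ between genes. Wild type replicate 1 (blue circle) is the highest point in all 10 panels, and only for Acot7 do all null values lie below all wild-type values.

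The genes of glycolysis and lactate export come first. In mouse and human, the promoters of many such genes hold the letters ACGTG, the core of the element bound by hypoxia-inducible factors and, as CACGTG, the E-box bound by MYC and USF proteins. These letters were looked for on both strands of the 250 bases before each RefSeq start in the build GRCm38.p6, where all 10 genes were matched with 12 windows. They stood in 3 of the 12 windows, beside 16.6% of all 32851 windows. The windows belong to Ldha, Slc16a1 and Hk2, the lactate dehydrogenase, the lactate carrier and a hexokinase, and are shown because they hold the letters, 5' to 3', with the matched letters in capitals; CACGTG is a match on both strands. They lie at chr7:46845554-46845803 on the plus strand for Ldha, chr3:104638414-104638663 on the plus strand for Slc16a1 and chr6:82774455-82774704 on the minus strand for Hk2.
Ldha: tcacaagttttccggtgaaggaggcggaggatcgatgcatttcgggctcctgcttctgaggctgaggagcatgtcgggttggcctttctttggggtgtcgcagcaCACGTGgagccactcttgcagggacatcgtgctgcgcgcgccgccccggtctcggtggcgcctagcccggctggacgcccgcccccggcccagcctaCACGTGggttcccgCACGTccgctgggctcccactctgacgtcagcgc
Slc16a1: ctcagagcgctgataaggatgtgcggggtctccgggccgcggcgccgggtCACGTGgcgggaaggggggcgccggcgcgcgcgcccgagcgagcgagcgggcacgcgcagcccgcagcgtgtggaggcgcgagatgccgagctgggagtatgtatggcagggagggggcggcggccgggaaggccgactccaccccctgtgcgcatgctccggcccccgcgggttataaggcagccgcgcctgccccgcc
Hk2: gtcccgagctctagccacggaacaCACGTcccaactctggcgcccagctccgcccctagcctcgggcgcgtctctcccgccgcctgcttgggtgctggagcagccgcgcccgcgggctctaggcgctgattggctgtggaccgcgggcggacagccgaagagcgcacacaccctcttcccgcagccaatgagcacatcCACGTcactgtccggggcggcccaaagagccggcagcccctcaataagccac
A match of these letters is a description of the sequence and not of binding. The letters were in none of the other 9 windows, which include a second start of Ldha and both starts of Hk1, the other hexokinase gene. The windows shown held 25 CG pairs for Ldha, 37 for Slc16a1 and 25 for Hk2, and the second Ldha window held 9. The median was 14 CG pairs over the 12 windows of disallowed genes and 6 over all windows, and Igfbp4 and Smad3 had 22 each. At or below the median of all windows lay Acot7 with 6, Pdgfra with 4 and 1 of the Hk1 starts with 1 CG pair.

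Ldha encodes the subunit of lactate dehydrogenase that favours the making of lactate from pyruvate. It was the most abundant of the 10 genes, at 3.18, 3.73 and 3.35 RPKM in null islets, against 5.01, 4.19 and 3.37 RPKM in wild-type islets. The groups overlapped, since wild type replicate 3 lay below Ucn3 null replicate 2. Ldha averaged 3.42 ± 0.281 RPKM in null and 4.19 ± 0.818 RPKM in wild-type islets (SD, n = 3 each), a null to wild type ratio of 0.82, with a log2 difference of -0.22 (SE 0.12, 95% interval -0.50 to 0.06, limma adjusted p = 0.61). Without wild type replicate 1 the log2 difference was -0.11 (limma adjusted p = 0.69). Ldhb, which encodes the subunit of the oxidative isoenzyme, stood at 11 ± 2.48 RPKM in null and 10.8 ± 2.12 RPKM in wild-type islets (SD, n = 3 each). Within libraries Ldhb exceeded Ldha 3.97-, 2.19- and 3.65-fold in null and 2.53-, 2.03- and 3.37-fold in wild-type islets. Ldhb was thus the higher of the 2 subunit genes in all 6 libraries, and its ratio to Ldha did not separate the genotypes (exact two-sided permutation p = 0.4, where 0.1 is the smallest that 3 against 3 can give).

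Slc16a1 encodes MCT1, a carrier that moves lactate and pyruvate with a proton across the plasma membrane. It held 0.277, 0.159 and 0.184 RPKM in null and 0.417, 0.350 and 0.172 RPKM in wild-type islets, which is about 34 to 64 reads in null and 37 to 79 reads in wild-type libraries. Wild type replicates 1 and 2 were the highest, while wild type replicate 3 lay among the null values. The null to wild type ratio of the means was 0.66, and 0.79 without wild type replicate 1. In the fit without the filter and with 0.1 RPKM added before the log, the difference was -0.40 (SE 0.29, limma adjusted p = 0.79). Bsg, the chaperone that carries MCT1 to the membrane, was at 134 ± 4.39 RPKM in null and 151 ± 7.25 RPKM in wild-type islets (SD, n = 3 each; limma adjusted p = 0.55), between 344 and 886 times the level of Slc16a1 in a library. Slc16a3, which encodes the related lactate carrier MCT4, was at 0.128 ± 0.0211 RPKM in null and 0.131 ± 0.0388 RPKM in wild-type islets (SD, n = 3 each).

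Hk1 and Hk2 encode the high-affinity hexokinases of most tissues. Hk1 stood at 1.10, 1.21 and 1.23 RPKM in null islets, against 1.64, 1.19 and 1.15 RPKM in wild-type islets. Apart from wild type replicate 1, the 5 libraries lay within 1.10 to 1.23 RPKM, and the groups overlapped. The log2 difference of Hk1 was -0.09 (SE 0.11, 95% interval -0.33 to 0.16, limma adjusted p = 0.85), and 0.01 without wild type replicate 1. Hk2 was the least abundant of the 10 genes, with 0.0698, 0.0678 and 0.0467 RPKM in null and 0.0765, 0.0639 and 0.0672 RPKM in wild-type islets. These values stand for about 12 to 20 reads in null and 17 to 18 reads in wild-type libraries. The exact Poisson 95% interval of 18 reads, 10.7 to 28.4, covers the counts of all 6 libraries, so the highest value in wild type replicate 1 does not stand out from counting error. Such intervals cover counting error only. The null to wild type ratio of Hk2 was 0.89 with all libraries and 0.94 without wild type replicate 1. Hk1 exceeded Hk2 15.8-, 17.8- and 26.4-fold in null libraries and 21.4-, 18.5- and 17.1-fold in wild-type libraries. Hk1 was thus the higher hexokinase gene in all 6 libraries, and its ratio to Hk2 did not separate the genotypes (exact two-sided permutation p = 0.9).

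**Figure D3:**
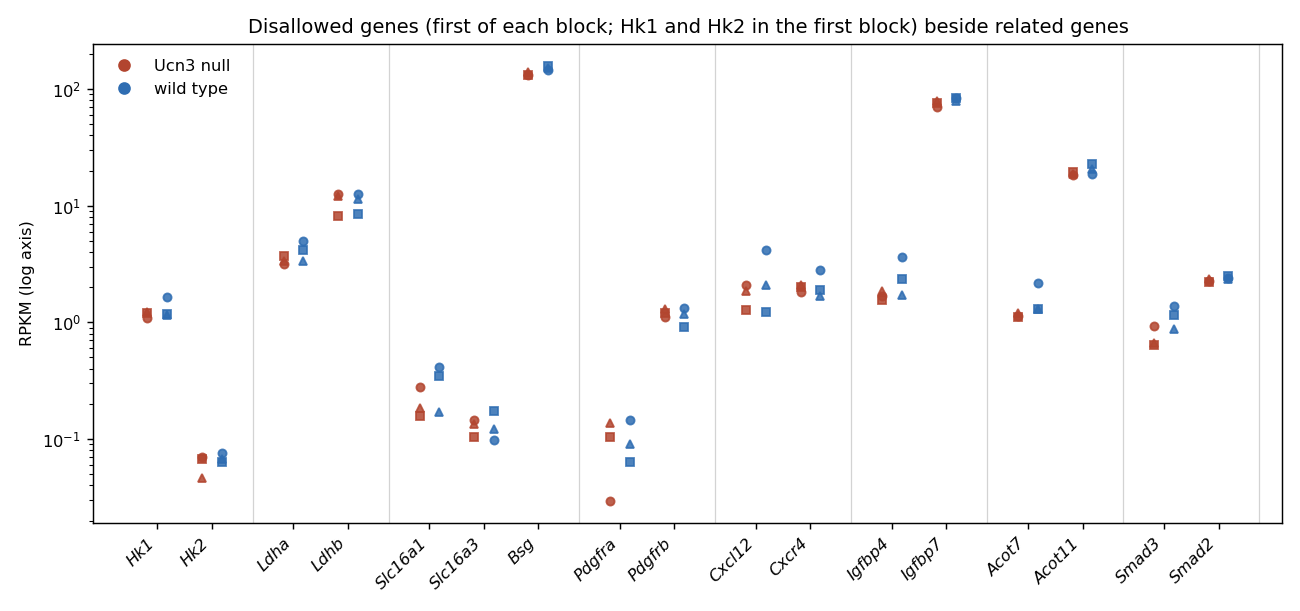
RPKM on a log axis of disallowed genes and related genes, each block holding 1 function, with 3 Ucn3 null libraries (red, left of each name) and 3 wild-type libraries (blue, right). Hk1 lies above Hk2 in every library, Ldhb lies above Ldha, and Smad3 lies below Smad2.

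Acot7 and Oat encode metabolic enzymes. Acot7, a thioesterase that splits long-chain acyl-CoA into fatty acid and coenzyme A, was at 1.14, 1.11 and 1.21 RPKM in null islets, against 2.17, 1.31 and 1.29 RPKM in wild-type islets. It was the 1 disallowed gene whose groups did not overlap, where 13.2% of tested genes had all null libraries below all wild-type libraries. In the other direction 0 disallowed genes lay apart, beside 1.90% of tested genes. Its gap was narrow apart from wild type replicate 1. Leaving out a library cannot make groups that lie apart overlap, so the same order without that library is no check. The log2 difference of Acot7 was -0.25 (SE 0.14, 95% interval -0.57 to 0.07, limma adjusted p = 0.62) and -0.09 without wild type replicate 1 (limma adjusted p = 0.70). Its values stand for 74 to 83 reads in null and 87 to 129 reads in wild-type libraries. Of the other acyl-CoA thioesterases 6 of 10 were tested, 0 passed in either direction and 5 had a lower null mean, with a median difference of -0.11, against -0.03 over all tested genes. Acot11 stood at 18.7 ± 0.571 RPKM in null and 20.7 ± 2.14 RPKM in wild-type islets, and Acot13 at 18.1 ± 1.53 and 20.8 ± 0.882 RPKM in null and wild-type islets (SD, n = 3 each), both far above Acot7 in each library.

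Oat encodes ornithine aminotransferase, a mitochondrial enzyme that links ornithine to glutamate and proline. It held 2.41, 2.35 and 2.68 RPKM in null islets, against 3.90, 2.57 and 2.74 RPKM in wild-type islets. Wild type replicate 1 stood apart and the other values lay close together, with Ucn3 null replicate 3 above wild type replicate 2. The log2 difference of Oat was -0.21 (SE 0.13, 95% interval -0.51 to 0.08, limma adjusted p = 0.64) and -0.07 without wild type replicate 1. Of 12 genes of ornithine, proline and polyamine metabolism 10 were tested and 0 passed in either direction. Among them Odc1, the enzyme that makes putrescine from ornithine, was at 28.5 ± 3.97 RPKM in null and 28.3 ± 13.4 RPKM in wild-type islets (SD, n = 3 each), and wild type replicates 1 and 3 lay at its ends with 42.9 and 16.6 RPKM.

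Cxcl12 and Pdgfra had the widest relative spread among libraries. Cxcl12 encodes a chemokine of stromal and endothelial cells. It was at 2.10, 1.28 and 1.87 RPKM in null islets, against 4.17, 1.22 and 2.10 RPKM in wild-type islets, so wild type held both the highest and the lowest library. The log2 difference of Cxcl12 was -0.27 (SE 0.28, 95% interval -0.94 to 0.39, limma adjusted p = 0.81), and it was 0.05 without wild type replicate 1. Its receptor gene Cxcr4 was at 1.97 ± 0.142 RPKM in null and 2.12 ± 0.592 RPKM in wild-type islets, and the scavenging receptor gene Cxcr7, now called Ackr3, at 1.44 ± 0.430 and 2.14 ± 0.877 RPKM in null and wild-type islets (SD, n = 3 each). Both were highest in wild type replicate 1, as Cxcl12 was.

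Igfbp4 encodes a secreted protein that binds insulin-like growth factors. It held 1.68, 1.55 and 1.84 RPKM in null islets, against 3.66, 2.37 and 1.71 RPKM in wild-type islets, and wild type replicate 3 lay within the null values. Igfbp4 had the largest difference among the 6 tested disallowed genes, -0.38 on the log2 scale (SE 0.18, 95% interval -0.80 to 0.05, limma adjusted p = 0.57), with a null to wild type ratio of 0.65. Without wild type replicate 1 the difference was -0.17 (limma adjusted p = 0.57) and the ratio 0.83. Igfbp7, the most abundant gene of its list, was at 74.6 ± 4.03 RPKM in null and 82.1 ± 2.64 RPKM in wild-type islets (SD, n = 3 each; limma adjusted p = 0.62). The list of other IGF binding proteins and IGFs had 6 of 11 genes tested, 0 of them called in either direction, 3 with a positive and 3 with a negative difference and a median of -0.02.

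Pdgfra encodes a receptor for platelet-derived growth factors that marks fibroblasts. It was at 0.0293, 0.105 and 0.138 RPKM in null and 0.147, 0.0633 and 0.0911 RPKM in wild-type islets, or about 10 to 42 reads in null and 20 to 41 reads in wild-type libraries. Ucn3 null replicate 1, with 10 reads, had an exact Poisson 95% interval of 4.80 to 18.4 reads, and the groups overlapped throughout. The interval of wild type replicate 1, with 41 reads, was 29.4 to 55.6 and covers the 42 reads of Ucn3 null replicate 3. The highest value of Pdgfra in wild type replicate 1 thus does not stand out from counting error. The null to wild type ratio was 0.90 with all libraries and 1.17 without wild type replicate 1. Pdgfrb, the related receptor of pericytes and stellate cells, stood higher, at 1.21 ± 0.0872 RPKM in null and 1.14 ± 0.219 RPKM in wild-type islets (SD, n = 3 each). Of the ligands, Pdgfa was at 10.6 ± 0.861 and 12.2 ± 1.21 RPKM and Pdgfd at 1.99 ± 0.647 and 2.80 ± 0.739 RPKM in null and wild-type islets (SD, n = 3 each), and 0 of the 4 tested PDGF genes passed in limma.

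Smad3 encodes a transcription factor that carries the TGF-beta and activin signal to the nucleus. It held 0.932, 0.644 and 0.661 RPKM in null islets, against 1.39, 1.15 and 0.876 RPKM in wild-type islets, with Ucn3 null replicate 1 above wild type replicate 3. The null to wild type ratio of Smad3 was 0.65, and at 0.74 without wild type replicate 1 it was the furthest below 1 among the 10 genes. Smad3 averaged under 1 RPKM, and in the fit without the filter its log2(RPKM + 1) difference was -0.29 (SE 0.11, 95% interval -0.56 to -0.02, unadjusted p = 0.04, limma adjusted p = 0.56). Smad2, its partner in the same signal, was at 2.28 ± 0.0651 RPKM in null and 2.41 ± 0.0617 RPKM in wild-type islets (SD, n = 3 each; limma adjusted p = 0.83). Of 20 other TGF-beta ligands, receptors and SMADs 15 were tested and 0 passed, 2 with a positive and 13 with a negative difference, a median of -0.06. The type I receptor gene Tgfbr1 was at 6.27 ± 0.258 RPKM in null and 7.38 ± 0.0936 RPKM in wild-type islets (SD, n = 3 each). Its log2 difference was -0.21 (limma adjusted p = 0.49), and its groups did not overlap. Of the 15 genes 3 lay apart with null lower, beside 13.2% of all tested genes, and 0 with null higher, beside 1.90%. Wild type replicate 1 was the highest library for 11 of the 15.

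**Figure D4:**
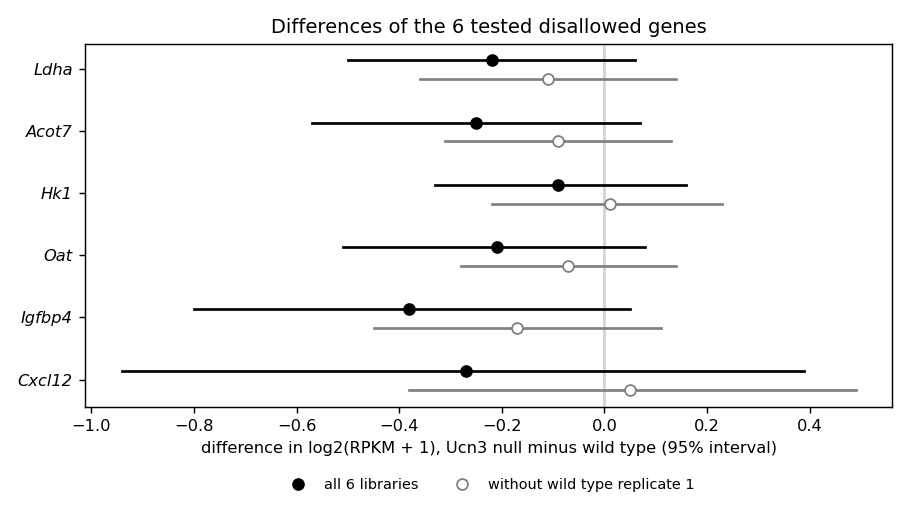
Difference in log2(RPKM + 1), Ucn3 null minus wild type, of the 6 disallowed genes in the limma fit, with 95% intervals, for all 6 libraries (filled) and without wild type replicate 1 (open). All 12 intervals include 0, and without that library the estimates of Hk1 and Cxcl12 are 0.01 and 0.05.

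In order of their mean over the 6 libraries the 10 genes were Ldha (3.81 ± 0.689 RPKM), Oat (2.78 ± 0.571), Igfbp4 (2.13 ± 0.799), Cxcl12 (2.13 ± 1.08), Acot7 (1.37 ± 0.397), Hk1 (1.25 ± 0.195), Smad3 (0.943 ± 0.289), Slc16a1 (0.260 ± 0.107), Pdgfra (0.0954 ± 0.0445) and Hk2 (0.0653 ± 0.0100 RPKM; SD, n = 6). Of the 9 neighbouring pairs in this order, 7 had overlapping ranges. The exceptions were Smad3 above Slc16a1 and Slc16a1 above Pdgfra. Among all symbols of the table, Ldha ranked above 58.6% in null and 62.3% in wild-type islets, and Hk2 above 18.9% in null and 19.1% in wild-type islets. These ranks are over all 21813 symbols, of which 12652 averaged at least 1 RPKM. Ldha would rank lower among the tested genes alone, and those ranks are not given. The disallowed genes of these islets thus ran from near the middle of all symbols to about 12 to 20 reads a library.

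Over 11 lists of related genes limma called 0 of 83 tested genes, and 8 of the 83 had an unadjusted p under 0.05, beside 9.36% of all tested genes. Other genes described as disallowed were listed as Zfp36l1, Arap2, Maf, Yap1, Rest and Mgst1. All 6 had a lower mean in null islets, 3 were tested and 0 passed, and 5 of the 6 were highest in wild type replicate 1. Zfp36l1 encodes a protein that speeds the decay of AU-rich transcripts. It was at 4.27 ± 0.342 RPKM in null and 6.33 ± 1.80 RPKM in wild-type islets (SD, n = 3 each). Its log2 difference was -0.45 (limma adjusted p = 0.49). Its groups did not overlap, where 13.2% of all tested genes lay apart with null lower. Yap1, an effector of Hippo signalling, was at 0.891 ± 0.178 and 1.18 ± 0.181 RPKM and Mgst1, a microsomal glutathione transferase, at 3.31 ± 2.06 and 6.51 ± 1.82 RPKM in null and wild-type islets (SD, n = 3 each). Enzymes of repressive chromatin marks had 0 of 10 tested genes called in either direction, and Dnmt3a stood at 12.2 ± 0.675 RPKM in null and 10.9 ± 1.42 RPKM in wild-type islets (SD, n = 3 each; limma adjusted p = 0.66). The NADH shuttle genes, which serve the mitochondrial use of glucose in place of lactate, had 0 of 9 called in either direction, a median difference of -0.02 and 0 of 9 with their highest value in wild type replicate 1. Genes of glucose entry and phosphorylation other than Hk1 and Hk2 had 0 of 4 called in either direction, with Slc2a2, the main glucose transporter of mouse beta cells, at 158 ± 12.8 RPKM in null and 164 ± 13.5 RPKM in wild-type islets (SD, n = 3 each). Of the tested genes of lactate and pyruvate handling 0 of 13 passed in either direction.

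The summed markers of stellate, macrophage and ductal cells were also highest in wild type replicate 1. Stellate and fibroblast markers summed over 12 genes to 22.0, 26.5 and 24.3 RPKM in null libraries, against 38.8, 19.8 and 25.9 RPKM in wild-type libraries, and wild type replicate 1 was the highest for 8 of the 12. Vim, an intermediate filament gene of mesenchymal cells, was at 4.46, 4.31 and 4.75 RPKM in null and 9.35, 4.21 and 4.97 RPKM in wild-type libraries. Macrophage and dendritic markers summed over 16 genes to 124, 173 and 145 RPKM in null and 227, 173 and 133 RPKM in wild-type libraries, with the highest value in wild type replicate 1 for 3 of the 12 tested. Of the 227 RPKM in wild type replicate 1, Cd74 held 89.3 and H2-Aa 47.4 RPKM, while C1qa had its lowest value there, 19.3 RPKM. Ductal markers summed over 13 genes to 347, 275 and 261 RPKM in null and 407, 400 and 303 RPKM in wild-type libraries. Wild type replicate 1 was the highest for 4 of the 11 ductal markers tested. Endothelial markers spread less, from 130 to 147 RPKM in null and from 131 to 141 RPKM in wild-type libraries over 13 genes. Beta cell markers were highest in wild type replicate 1 for 0 of 12 genes. Delta cell markers summed over 5 genes to 694, 872 and 1097 RPKM in null and 1758, 2201 and 2415 RPKM in wild-type libraries and were highest in wild type replicate 3. Most of that sum was Sst, the somatostatin gene, at 831 ± 197 RPKM in null and 2038 ± 329 RPKM in wild-type islets (SD, n = 3 each; limma adjusted p = 0.34), while Casr of the same list had the higher mean in null islets, 12.5 ± 1.41 RPKM, against 10.3 ± 0.320 RPKM in wild-type islets (SD, n = 3 each; limma adjusted p = 0.49). Of the 4 delta cell markers tested, 1 had a positive and 3 a negative difference. The groups of all 4 lay apart, 3 with null lower and 1 with null higher, beside 13.2% and 1.90% of tested genes. All 4 had an unadjusted limma p under 0.05. Over the 10 marker lists 40 of 103 tested genes did, 26 of them acinar, beside 9.36% of all tested genes. Of the 103, limma called 1 at an adjusted p under 0.05, which was Ucn3. No marker gene was at 0 in all 6 libraries, and the part of these cells in the values of the disallowed genes was not tested.

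**Figure D5:**
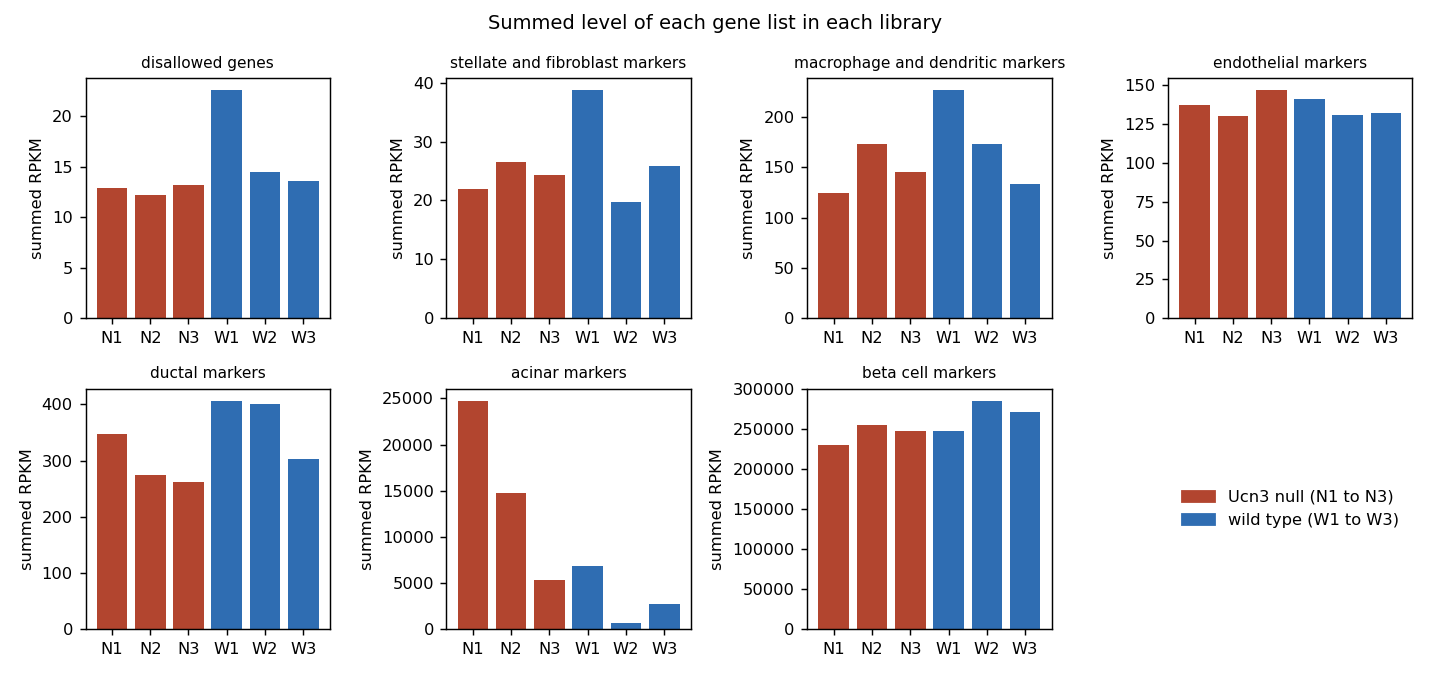
Summed RPKM of the 10 disallowed genes and of 6 marker lists in each library, with Ucn3 null libraries (N1 to N3, red) left of wild-type libraries (W1 to W3, blue); axes start at 0. The disallowed genes and the stellate and fibroblast markers are highest in W1, at 22.6 and 38.8 RPKM, while acinar markers are highest in N1 and beta cell markers in W2.

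Genes whose profile over the 6 libraries lay nearest to a disallowed gene were found for Cxcl12, Igfbp4 and Acot7, which had the widest range on the log2(RPKM + 1) scale. Likeness was the root mean square difference of log2(RPKM + 1) after centring, over 6 libraries, and is a description. Nearest to Cxcl12 were Vim (0.147), Mgp (0.162), a matrix protein gene, and Dgke (0.162), a diacylglycerol kinase gene, and nearest to Igfbp4 were Zfp36l1 (0.065), Patl2 (0.067) and B2m (0.071). Nearest to Acot7 were Birc3 (0.016), an inhibitor of apoptosis gene, Oat (0.039) and Ctla2b (0.043). Of these 9 neighbours 2, Oat and Zfp36l1, are themselves disallowed genes. All 9 were highest in wild type replicate 1, as Cxcl12, Igfbp4 and Acot7 were. They were picked for a like profile, so their place here restates that pattern. B2m, the light chain of MHC class I, was at 44.2, 41.1 and 44.6 RPKM in null islets, against 80.3, 57.6 and 49.9 RPKM in wild-type islets. Its peak in wild type replicate 1 likewise follows from how it was picked.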

How the data were processed

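The authors deposited RPKM values, 1 row per RefSeq transcript and 1 column per library, per the file headers. STAR, bedtools and DESeq are named without role or version, with the build mm9, per the submitters' processing notes. The treatment of shared reads and strand, and the total behind RPKM, are not given in the sources used here. Libraries came from an Illumina TruSeq RNA kit, per the labels' protocols. Of 28129 rows, 117 had no values and 1 held text in a value cell, leaving 28011 rows and 21813 symbols.

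The transcript with the highest mean was kept per symbol, and 12652 genes averaging at least 1 RPKM were tested. The test was limma 3.58.1 under R 4.3.3 on log2(RPKM + 1) (a single term for genotype, eBayes with a mean trend, Benjamini-Hochberg adjustment, threshold 0.05); differences are null minus wild type and understate those of low genes. The fit was tested on simulated data. Null and wild-type animals are not matched by the labels, and no block was used. Read numbers are estimates from the steps between low values and GENCODE M21 transcript lengths, found for 97.5% of rows; between 77.1% and 80.5% of low values came out whole within 0.1 read. Promoter windows are from RefSeq, build GRCm38.p6, and figures from matplotlib 3.10.9. The 10 genes and all lists were chosen with earlier results of these data known. Named are the 10 genes, up to 4 genes of each related list by highest mean, fixed partners such as Ldhb, Bsg and Smad2, up to 3 genes of each marker list by highest mean, and the nearest profiles. Arap2, Maf, Rest and Lyz2 were named after their values were seen. Alternatives were another pseudocount, no filter, no trend, 2 other scalings, the mean over transcripts, the acinar mean as a covariate and leaving out each library. A gene fixed for comparison is not reported here.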

Additional observations from a re-analysis of the deposited data

How the results depend on the processing

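The 14 alternative settings gave 84 recomputed differences for the 6 tested disallowed genes: 0 were called by limma (lowest adjusted p 0.53), 82 kept their sign and 2 reversed. The reversals were Hk1 and Cxcl12 without wild type replicate 1, and over the 6 fits that each left out 1 library Hk1 ran from -0.14 to 0.01 and Cxcl12 from -0.55 to 0.05. Leaving out wild type replicate 1, the highest library of Hk1 and Cxcl12, could only raise their differences. Under the acinar covariate the Cxcl12 difference was -0.89 (limma adjusted p = 0.97). The number of disallowed genes whose groups do not overlap was 1 (Acot7) in the report and 2 (Acot7 and Oat) with median-ratio scaling. With 1 library left out it ran from 1 to 5, the 5 being Ldha, Slc16a1, Acot7, Igfbp4 and Smad3 without wild type replicate 3. Leaving out a library can only keep or raise this count, so Acot7 was bound to be in each. The count was 3 without Ucn3 null replicate 3 or wild type replicate 2, and 2 without either of the other Ucn3 null libraries. The share of all tested genes was not computed for these settings, so these counts are not a result about the disallowed genes. Over all genes limma called 2, against 4 without the filter, 4 without the filter and with a pseudocount of 0.1 (added after the data were seen) and 1 with the acinar covariate; with 1 library left out it called from 1 (Ucn3 null replicate 2 left out) to 5 (Ucn3 null replicate 1 left out). The cause was not tested, except that leaving out a library leaves fewer samples. No paired analysis was possible because the labels give no replicate numbers shared between the genotypes. With about 10 to 42 reads for Hk2 and Pdgfra, differences of these 2 genes within their counting intervals were not detectable at this depth.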

Other observations

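The 3 other disallowed genes under the filter lay low in both genotypes. Arap2, which encodes a GTPase-activating protein for ARF proteins, was at 0.675, 0.587 and 0.481 RPKM in null islets, against 1.03, 0.772 and 0.647 RPKM in wild-type islets, with Ucn3 null replicate 1 above wild type replicate 3. Rest, a repressor of neuronal genes, was at 0.251 ± 0.0135 RPKM in null and 0.346 ± 0.0916 RPKM in wild-type islets (SD, n = 3 each), and wild type replicate 3, at 0.255 RPKM, lay within the null values. Maf, a transcription factor, was at 0.126, 0.239 and 0.217 RPKM in null and 0.513, 0.516 and 0.152 RPKM in wild-type islets, and was the 1 of the 6 other disallowed genes whose highest value was in wild type replicate 2. Among macrophage genes, Lyz2, a lysozyme, held 7.78, 22.6 and 11 RPKM in null and 43.3, 18.6 and 13.4 RPKM in wild-type islets. It was named after its values were seen, and 3 of the 12 tested macrophage and dendritic markers were highest in wild type replicate 1. C1qa of the same list had its lowest value there, 19.3 RPKM, against 27.0 RPKM in wild type replicate 2.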
